A study of Cyprinodon variegatus with 4 samples.

Results

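Complement components and C-reactive protein were followed through 4 RNA libraries of whole sheepshead minnow larvae (Cyprinodon variegatus), an estuarine fish used in toxicity tests. The members are all contigs (assembled transcript sequences) whose protein description begins with "Complement C", "Complement factor", "Complement component" or "C-reactive protein". They numbered 37 of 257521 contigs and carried 15 of the 9597 different descriptions in the table. The group was chosen by its FPKM values, since complement stood higher in both libraries of fibre-exposed larvae than in both libraries without fibres. Ratios between those libraries therefore describe the choice and support nothing.

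Each group held 1 library. Untreated larvae formed the control, and larvae given the surfactant Tween 80 at 0.001% formed the surfactant control. The fibre groups received microfibres of PET (polyethylene terephthalate, the polyester of textiles) at 10 mg/L or at 100 mg/L. Exposure took 10 days, the labels put the stage at 72 h after fertilization, and the whole body was used. Since 10 days is longer than 72 h, both cannot hold at sampling, and the age at sampling is not known here. The labels used here do not state how many larvae were pooled for a library, or whether the PET suspensions contained Tween 80. Every difference described is between single libraries, with no replicate check, no error and no p-value.

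Complement is a cascade of plasma proteins, secreted chiefly by the liver, that marks microbes and damaged cells for removal. Its routes of activation meet at C3, whose cleaved fragment attaches to surfaces and joins the enzymes that cleave more C3. Factor B supplies the protease of that amplification loop, factors H and I shut the loop down, and the terminal components from C6 to C9 build a pore in the target membrane. C-reactive protein is a pentraxin, a ring-shaped plasma protein that binds damaged surfaces and can start the classical route. In mammals it is a marker of the acute phase, the liver's response to injury.

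Levels are in FPKM, a fragment count divided by contig length and by all mapped fragments of the library, as the authors deposited them. Contigs sharing a description were summed, and log2 ratios were taken of FPKM plus 0.5. Sequencing depth was estimated from the most common ratio of low values to the untreated library, taking that ratio to mean equal fragment counts. Relative to the untreated library it was 78.5% for the surfactant control, 84.1% for PET 10 mg/L and 79.6% for PET 100 mg/L. The assumption was not checked. Contigs above 0 numbered 150173 in the control, 143907 in the surfactant control, 151673 in PET 10 mg/L and 152374 in PET 100 mg/L, another order. Absolute depth is unknown. Of the member contigs, 26 were above 0 in all 4 libraries, 6 in 2 or 3, 4 in only 1 and 1 in none. Averaged over the 4 libraries, 18 of the 37 contigs and 12 of the 15 description sums reached 1 FPKM. The 3 descriptions that did not were C2, C6 and the C1q tumour necrosis factor-related protein 3. Scaling the libraries to a common median lowered the log2 ratios of PET 100 mg/L over all descriptions by 0.11 against the surfactant control and by 0.12 against the control.

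C3 (c3 in the table), the component on which all routes converge, was the most abundant member. Its 7 contigs summed to 87.1 FPKM in untreated larvae, 111 FPKM in surfactant control larvae, 148 FPKM in PET 10 mg/L larvae and 198 FPKM in PET 100 mg/L larvae. No neighbours in that order were closer than 1.28-fold. The PET 100 mg/L library stood 1.78-fold above the surfactant control and 2.27-fold above the control. The PET 10 mg/L library stood 1.33-fold and 1.70-fold above them. C3 gave 63.6% of the FPKM of the 9 cascade descriptions in PET 100 mg/L larvae and 63.2% in PET 10 mg/L larvae, against 59.8% in the surfactant control and 58.4% in the control. In RNA of whole larvae, a difference in the number of cells of a type and a difference in RNA per cell cannot be told apart.

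The contigs of C3 did not share 1 pattern. Contig TR114758|c1_g1_i1 held most of the sum, with 69.9 FPKM in untreated larvae, 83.2 FPKM in surfactant control larvae, 121 FPKM in PET 10 mg/L larvae and 167 FPKM in PET 100 mg/L larvae. The libraries stood in the order of the sum. This contig gave 84.3% of the C3 sum in PET 100 mg/L larvae, against 74.7% in surfactant control larvae.

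A second assembly component, TR124691, held 3 contigs of C3. Together they reached 16.7 FPKM in untreated larvae, 28.0 FPKM in surfactant control larvae, 24.4 FPKM in PET 10 mg/L larvae and 29.7 FPKM in PET 100 mg/L larvae. Here the surfactant control lay between the PET libraries. The log2 ratio to the surfactant control was 0.084 for PET 100 mg/L and -0.20 for PET 10 mg/L, where the main contig had 1.00 and 0.54. Against the untreated control, the second component had log2 ratios of 0.81 for PET 100 mg/L, 0.53 for PET 10 mg/L and 0.73 for the surfactant control.

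The contigs of the second component are isoforms by their names, and they differed among themselves. Division of fragments among isoforms affects the FPKM of each. Contig i6 had 8.01 FPKM in untreated larvae, 15.4 FPKM in surfactant control larvae, 7.89 FPKM in PET 10 mg/L larvae and 11.97 FPKM in PET 100 mg/L larvae, and was thus highest in the surfactant control. Contig i7 had 7.87, 11.6, 12.95 and 14.8 FPKM in the same order of libraries, which is the order of the sum. Contig i3 was low, at 0.85, 1.05, 3.54 and 2.95 FPKM, with both PET libraries above both others. The other 3 contigs of C3 averaged under 1 FPKM, and 1 of them was at 2.19 FPKM in PET 10 mg/L larvae and listed at 0 elsewhere. Whether the components come from separate C3 genes was not tested.

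**Figure D1:**
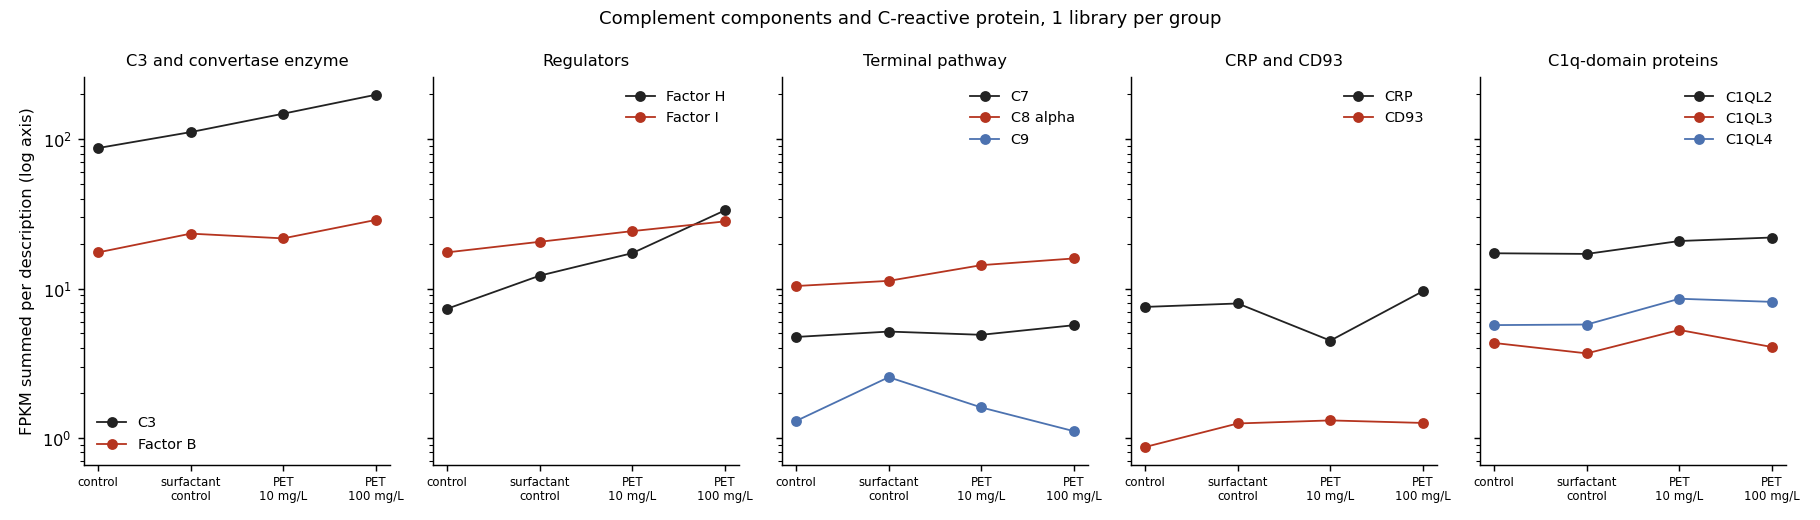
FPKM summed per description (log axis) in the 4 libraries, 1 point per library, for the 12 descriptions that averaged at least 1 FPKM, in 5 panels by role. C3 stands at 198 FPKM in PET 100 mg/L larvae and 87.1 FPKM in untreated larvae, factor H lies above factor I only in PET 100 mg/L larvae, and C-reactive protein is lowest in PET 10 mg/L larvae.

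Factor B, the protease of the alternative route's C3-cleaving enzyme, was highest in PET 100 mg/L larvae, but in PET 10 mg/L larvae it lay below the surfactant control. Its 2 contigs summed to 17.4 FPKM in untreated larvae, 23.3 FPKM in surfactant control larvae, 21.7 FPKM in PET 10 mg/L larvae and 28.8 FPKM in PET 100 mg/L larvae. The log2 ratio to the surfactant control was 0.30 for PET 100 mg/L and -0.10 for PET 10 mg/L. Contig TR13737 carried the differences, at 10.8, 17.1, 14.9 and 21.2 FPKM in the same order of libraries. Contig TR19168 lay between 6.24 and 7.53 FPKM in the 4 libraries.

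C2, the corresponding protease of the classical and lectin routes, was barely detected. Its 2 contigs summed to 2.67 FPKM in untreated larvae and 1.19 FPKM in PET 10 mg/L larvae, and both were listed at 0 in surfactant control and PET 100 mg/L larvae. No fold is given for a contig listed at 0, since an exact 0 can be a failed estimate.

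Factor H, the plasma protein that binds C3's surface-bound fragment and displaces factor B's product, had a single contig. It stood at 7.32 FPKM in untreated larvae, 12.2 FPKM in surfactant control larvae, 17.2 FPKM in PET 10 mg/L larvae and 33.3 FPKM in PET 100 mg/L larvae. The libraries were in the order of C3 and farther apart. PET 100 mg/L was 2.73-fold the surfactant control and 4.55-fold the control, and PET 10 mg/L was 1.41-fold and 2.36-fold. Among the 12 descriptions these were the highest ratios of a PET library to a library without fibres, except that the C1q-like protein 4 and, by FPKM without the added 0.5, the C1q-like protein 3 had higher ones for PET 10 mg/L over the surfactant control. As a share of the C3 sum, factor H came to 16.8% in PET 100 mg/L larvae and 11.7% in PET 10 mg/L larvae, against 10.95% in the surfactant control and 8.41% in the control.

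Factor I, the protease that cuts C3's active fragment with factor H as cofactor, had the same order of libraries with smaller steps. Its sum was 17.5 FPKM in untreated larvae, 20.5 FPKM in surfactant control larvae, 24.2 FPKM in PET 10 mg/L larvae and 28.1 FPKM in PET 100 mg/L larvae. PET 100 mg/L was 1.37-fold the surfactant control and PET 10 mg/L was 1.18-fold.

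The 2 contigs of factor I are isoforms of 1 assembly component and split this difference unequally. Isoform i2 was at 10.45 FPKM in untreated larvae and between 16.1 and 17.5 FPKM in the other 3 libraries. Isoform i1 had 7.0 FPKM in untreated larvae, 4.43 FPKM in surfactant control larvae, 6.70 FPKM in PET 10 mg/L larvae and 11.00 FPKM in PET 100 mg/L larvae. The isoforms thus placed the surfactant control on opposite sides of the control. How the fragments were divided between isoforms affects each isoform's FPKM.

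**Figure D2:**
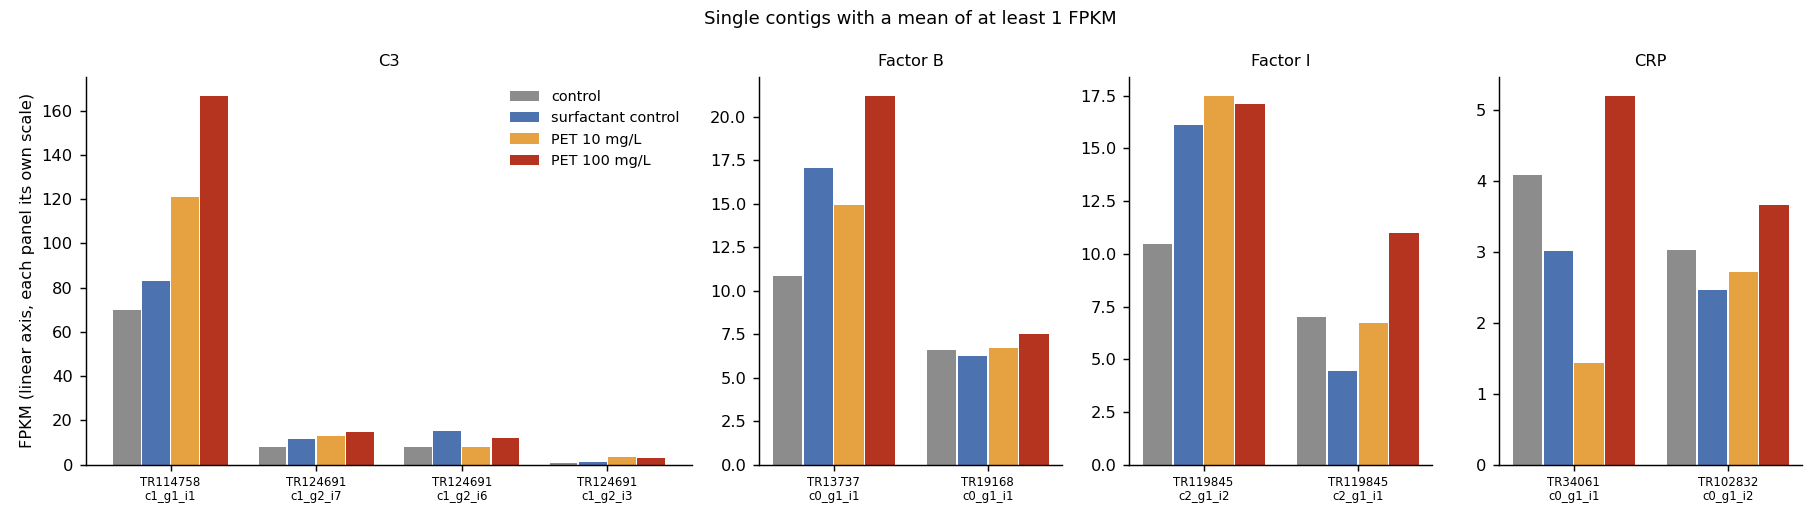
FPKM of single contigs that averaged at least 1 FPKM (linear axes, each panel with its own scale), with 1 bar per library. Contig TR114758 of C3 reaches 167 FPKM in PET 100 mg/L larvae, contig i6 of the second C3 component is highest in surfactant control larvae, and contig TR19168 of factor B lies between 6.24 and 7.53 FPKM.

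Among the terminal components, C8 alpha (a pore-forming subunit) was higher in both PET libraries, C7 varied little, and C9 had another order. C8 alpha stood at 10.4 FPKM in untreated larvae, 11.3 FPKM in surfactant control larvae, 14.3 FPKM in PET 10 mg/L larvae and 15.9 FPKM in PET 100 mg/L larvae. PET 100 mg/L was 1.41-fold the surfactant control and PET 10 mg/L was 1.27-fold. C7, which anchors the growing complex in the membrane, had 4.74, 5.15, 4.90 and 5.68 FPKM in the same order of libraries.

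C9, the subunit that polymerizes into the pore, was low and highest in the surfactant control. It summed to 1.30 FPKM in untreated larvae, 2.55 FPKM in surfactant control larvae, 1.60 FPKM in PET 10 mg/L larvae and 1.11 FPKM in PET 100 mg/L larvae, and its 2 isoforms each averaged under 1 FPKM. C6 had 2 contigs, neither above 0.65 FPKM in any library, and both were listed at 0 in the surfactant control.

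C-reactive protein (crp in the table) did not follow C3. Its 5 contigs summed to 7.53 FPKM in untreated larvae, 7.94 FPKM in surfactant control larvae, 4.48 FPKM in PET 10 mg/L larvae and 9.59 FPKM in PET 100 mg/L larvae. The PET libraries lay on opposite sides of both libraries without fibres. The log2 ratio to the surfactant control was 0.26 for PET 100 mg/L and -0.76 for PET 10 mg/L, and the log2 ratio to the control was 0.33 and -0.69.

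Its 2 contigs that averaged at least 1 FPKM placed PET 10 mg/L differently. Contig TR34061, the most abundant, had 4.08 FPKM in untreated larvae, 3.01 FPKM in surfactant control larvae, 1.43 FPKM in PET 10 mg/L larvae and 5.20 FPKM in PET 100 mg/L larvae. Contig TR102832 had 3.03, 2.46, 2.72 and 3.66 FPKM in the same order of libraries. Both were highest in PET 100 mg/L larvae, and the lowest library was PET 10 mg/L for TR34061 and the surfactant control for TR102832. Contig TR30318 was at 2.03 FPKM in surfactant control larvae and listed at 0 in the other 3 libraries. Without it and 2 others that averaged under 1 FPKM, the log2 ratio to the surfactant control was 0.65 for PET 100 mg/L and -0.36 for PET 10 mg/L.

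The remaining members bear complement in their names without being components of the cascade. CD93, described as the complement component C1q receptor and known as a glycoprotein of blood vessel lining, was low. It summed to 0.87 FPKM in untreated larvae, 1.25 FPKM in surfactant control larvae, 1.31 FPKM in PET 10 mg/L larvae and 1.26 FPKM in PET 100 mg/L larvae. The control was the low one, and the other 3 libraries were close together.

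The C1q-like proteins 2, 3 and 4 are secreted proteins with a C1q domain, studied in mammals mostly at synapses. The C1q-like protein 2 had 17.2 FPKM in untreated larvae, 17.0 FPKM in surfactant control larvae, 20.8 FPKM in PET 10 mg/L larvae and 21.9 FPKM in PET 100 mg/L larvae. Nearly all of it came from contig TR102015, whose 4 values lay between 16.8 and 20.9 FPKM. The C1q-like protein 4 summed over 4 contigs to 5.69 FPKM in untreated larvae, 5.74 FPKM in surfactant control larvae, 8.54 FPKM in PET 10 mg/L larvae and 8.14 FPKM in PET 100 mg/L larvae. Both proteins were higher in the PET libraries, and the libraries without fibres were close to each other.

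The assembly components of the C1q-like protein 4 put that difference in different libraries. Component TR107064 had 3.69, 4.28, 6.60 and 4.32 FPKM in the same order of libraries, highest in PET 10 mg/L larvae. Its isoforms, at 0.86, 1.87, 2.46 and 0.79 FPKM and at 2.83, 2.41, 4.14 and 3.53 FPKM, were both highest there. Component TR108003 had 2.0, 1.46, 1.94 and 3.82 FPKM, highest in PET 100 mg/L larvae. That high value rested on isoform i2, at 0.70, 0, 0.60 and 2.69 FPKM, which averaged under 1 FPKM. Isoform i7, which averaged above 1 FPKM, had 1.30, 1.46, 1.34 and 1.13 FPKM and was lowest in PET 100 mg/L larvae.

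The C1q-like protein 3 summed to 4.32 FPKM in untreated larvae, 3.68 FPKM in surfactant control larvae, 5.28 FPKM in PET 10 mg/L larvae and 4.06 FPKM in PET 100 mg/L larvae. Its high value in PET 10 mg/L larvae rested on 1 contig at 2.12 FPKM that was listed at 0 in the other libraries. The C1q tumour necrosis factor-related protein 3, a secreted relative, stood at 1.22 FPKM in PET 100 mg/L larvae and between 0.73 and 0.79 FPKM in the other 3 libraries.

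**Figure D3:**
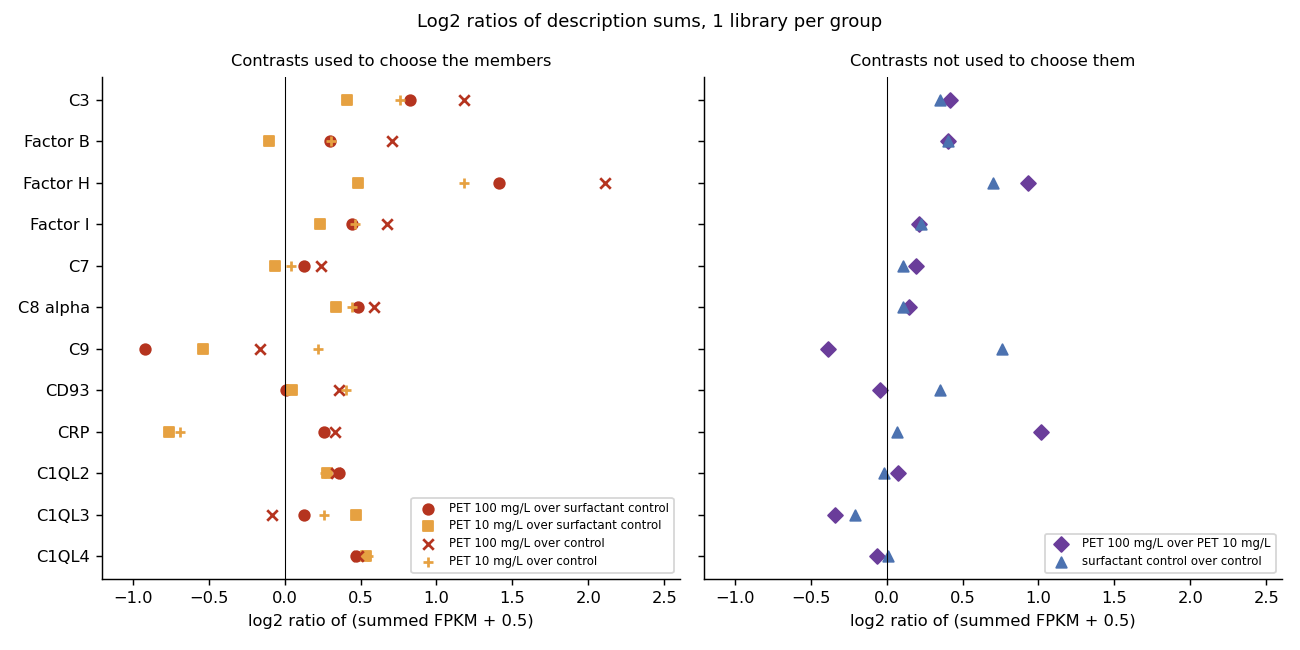
Log2 ratios of summed FPKM plus 0.5 for the 12 descriptions that averaged at least 1 FPKM, with PET over surfactant control and over control in the left panel and the 2 contrasts that did not choose the members in the right panel. For PET 100 mg/L over the surfactant control factor H has 1.41 and C9 -0.92, and C-reactive protein lies on opposite sides of 0 at the PET concentrations.

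Seen over all members, the PET libraries were higher for some descriptions and not for others. Both PET libraries stood above both libraries without fibres for 7 of the 12 descriptions, as they did for 26.6% of the 6451 descriptions that averaged at least 1 FPKM. The 7 were C3, factor H, factor I, C8 alpha, CD93 and the C1q-like proteins 2 and 4. For CD93 the PET 100 mg/L library was only 1.01-fold the surfactant control. For 0 of the 12, beside 11.1% of all descriptions, both PET libraries stood below both others. This contrast chose the members, so nothing is read from the counts.

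For PET 100 mg/L over the surfactant control, 7 of the 12 descriptions were at least 1.2-fold higher, beside 23.6% of all descriptions, and 1, C9, was at least 1.2-fold lower, beside 9.91%. Those higher were C3, factors B, H and I, C8 alpha and the C1q-like proteins 2 and 4. The median log2 ratio was 0.33 over the 12 and 0.08 over all descriptions. Of all descriptions past 1.2-fold, 70.5% were higher as deposited and 47.2% after scaling to a common median, where 5 of the 12 were higher, beside 14.7% of all descriptions, and 1 lower, beside 16.4%. For PET 10 mg/L over the surfactant control, 6 of the 12 were higher, beside 17.5% of all, and 2 (C9 and C-reactive protein) were lower, beside 12.2%. Those higher were C3, factor H, C8 alpha and the C1q-like proteins 2, 3 and 4, which are not components of the cascade. The C1q-like protein 3 was higher through 1 contig listed at 0 in the other libraries. Its contig that averaged at least 1 FPKM had a log2 ratio of -0.19. The median log2 ratio was 0.26 over the 12, 0.05 over the 9 of them that are not C1q-like proteins, and 0.03 over all descriptions.

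Over the untreated control, 9 of the 12 were at least 1.2-fold higher in PET 100 mg/L larvae, beside 23.3% of all descriptions, and 0 lower, beside 10.0%. Of all descriptions past 1.2-fold, 69.9% were higher as deposited and 46.1% after scaling, where 7 of the 12 were higher, beside 14.6% of all descriptions, and 0 lower, beside 17.0%. For PET 10 mg/L over the control, 8 were higher, beside 18.4% of all, and 1 (C-reactive protein) was lower, beside 11.6%. The comparisons share their control libraries and are not independent of each other.

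**Figure D4:**
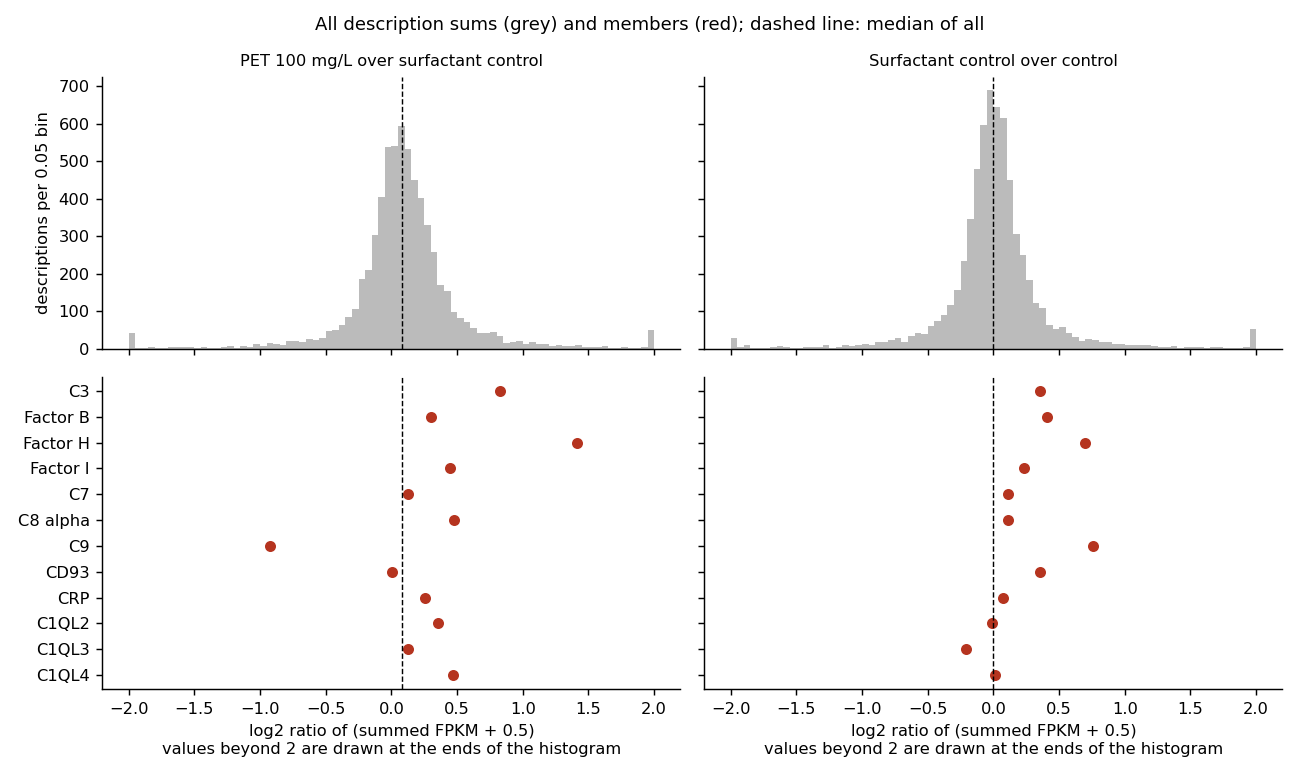
Histograms of the log2 ratio of summed FPKM plus 0.5 over all 6451 descriptions that averaged at least 1 FPKM (grey, top) and 1 point for each of the 12 members (red, bottom), for PET 100 mg/L over surfactant control and surfactant control over control. The dashed line is the median of all descriptions, 0.08 on the left, and most members lie to its right in both panels.

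The contrast between the libraries without fibres did not choose the members. In surfactant control larvae, 5 of the 12 descriptions were at least 1.2-fold higher than in untreated larvae, beside 14.3% of all descriptions. They were C3, factor B, factor H, C9 and CD93. As many as 12.7% of all descriptions were 1.2-fold lower there, but 0 of the 12. Factor H in the surfactant control was 1.67-fold the control, factor B 1.34-fold and C3 1.28-fold. The main contig of C3 alone had a log2 ratio of 0.25, under 1.2-fold, and the second C3 component had 0.73. C9 and CD93 were low, and none of their contigs averaged 1 FPKM. The median log2 ratio was 0.17 over the 12 and 0.00 over all descriptions. C-reactive protein had a log2 ratio of 0.07, and of -0.35 over its contigs that averaged at least 1 FPKM, which leave out contig TR30318, above 0 in the surfactant control alone.

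Between the PET concentrations, which also did not choose the members, 4 of the 12 descriptions were at least 1.2-fold higher in PET 100 mg/L larvae than in PET 10 mg/L larvae, beside 18.1% of all descriptions. C-reactive protein was 2.14-fold higher, factor H 1.93-fold, C3 1.34-fold and factor B 1.33-fold. C9 and the C1q-like protein 3 were the 2 lower ones, beside 11.8% of all. The median log2 ratio was 0.17 over the 12 and 0.06 over all descriptions. Of all descriptions past 1.2-fold, 60.5% were higher as deposited and 44.5% after scaling, where 4 of the 12 were higher, beside 12.9% of all descriptions, and 2 lower, beside 16.1%. With 1 library per concentration, a difference between concentrations cannot be told apart from one between libraries.

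Through control, surfactant control, PET 10 mg/L and PET 100 mg/L, each library stood above the one before for 4 of the 12 descriptions, namely C3, factor H, factor I and C8 alpha. Of all descriptions 8.09% had this order, which includes the contrasts that chose the members.

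At the level of contigs, between 0 and 4 of the 18 members that averaged at least 1 FPKM were past 2-fold in a given direction. Background shares are over the 45298 contigs past the same filter. For PET 100 mg/L over the surfactant control, 4 were at least 2-fold higher (9.19% of all) and 0 lower (6.69%). The 4 were the main contig of C3, just at the threshold with a log2 ratio of 1.00, contig i3 of the second C3 component, factor H and isoform i1 of factor I. For PET 10 mg/L over the surfactant control, contig i3 was the 1 higher contig (8.51%) and 0 were lower (6.95%). For PET 100 mg/L over the control, 3 were higher (9.49%), both these C3 contigs and factor H, and 0 lower (5.81%). For PET 10 mg/L over the control, 3 were higher (9.01%), contig i3, factor H and contig TR107064|c0_g2_i1 of the C1q-like protein 4, and 1 was lower (5.99%), contig TR34061 of C-reactive protein. Contig i3 of C3 is among the higher in each of these contrasts. It had 0.85 and 1.05 FPKM without fibres and reached the filter through its PET values, so nothing is read from its counts.

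The other contrasts did not choose the members. Of the 18 contigs, between PET 100 mg/L and PET 10 mg/L, 1 was higher at 100 mg/L (8.08%), TR34061 of C-reactive protein, and 1 lower (7.32%), TR107064|c0_g2_i1. For the surfactant control over the control, 0 were higher (7.86%) and 0 lower (6.61%). The median log2 ratio over the 18 contigs was 0.19 between the PET concentrations, beside 0.06 over all contigs, and 0.15 for the surfactant control over the control, beside 0.00.

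Other genes of complement were drawn from a list of 21, of which 7 matched contigs and 14 matched none. All 7 averaged at least 1 FPKM. At least 1.2-fold higher than in the surfactant control were 4 of the 7 in PET 100 mg/L larvae, beside 23.6% of all descriptions, and 2 in PET 10 mg/L larvae, beside 17.5%. In either library 0 were as much lower, beside 9.91% and 12.2% of all. Counts for this list and the lists below are of FPKM as deposited and were not repeated after scaling. For PET 100 mg/L over the surfactant control, MBL2, SERPING1 and VTN had log2 ratios of 0.31, 0.30 and 0.30. A drop of 0.11, as scaling gave over all descriptions, would take them under 1.2-fold. It would leave only CFP, at 0.61, beside 14.7% of all descriptions after scaling. The 7 summed to 213 FPKM in untreated larvae, 242 FPKM in surfactant control larvae, 257 FPKM in PET 10 mg/L larvae and 279 FPKM in PET 100 mg/L larvae.

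Among the starters and stabilizers, mannose-binding protein C (MBL2, which starts the lectin route) had 40.3, 47.7, 60.1 and 59.4 FPKM in the order untreated, surfactant control, PET 10 mg/L and PET 100 mg/L. Properdin (CFP), which stabilizes the alternative route's enzyme, had 1.32, 1.37, 2.15 and 2.35 FPKM. Both were higher in the PET libraries. Among the inhibitors, vitronectin (VTN), which blocks the terminal complex in plasma, had 33.0, 37.5, 43.4 and 46.3 FPKM, and SERPING1, the C1 inhibitor, had 26.3, 31.8, 34.2 and 39.3 FPKM. Both stood in the order of C3. The membrane-bound pore inhibitor CD59 had 55.5, 61.6, 58.2 and 63.9 FPKM, and CPN1, a carboxypeptidase chain that inactivates complement's small inflammatory fragments, 50.7, 55.3, 53.2 and 60.7 FPKM. The receptor of one such fragment, C3AR1, had 5.60, 6.35, 6.0 and 6.79 FPKM. For these last genes, PET 10 mg/L lay below the surfactant control, as for factor B.

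Acute phase proteins did not behave as 1 group. Of 15 listed, 6 matched contigs and 4 averaged at least 1 FPKM. At least 1.2-fold higher than in the surfactant control were 2 of the 4 in PET 100 mg/L larvae, beside 23.6% of all descriptions, and 2 in PET 10 mg/L larvae, beside 17.5%. As much lower were 0 in PET 100 mg/L larvae, beside 9.91% of all, and 1, alpha-1-antitrypsin, in PET 10 mg/L larvae, beside 12.2%. LECT2, a chemotactic liver protein, had 65.4 FPKM in untreated larvae, 51.6 FPKM in surfactant control larvae, 143 FPKM in PET 10 mg/L larvae and 133 FPKM in PET 100 mg/L larvae. Fibrinogen gamma chain (FGG, a clotting protein) had 125, 157, 150 and 185 FPKM in the same order of libraries, and alpha-1-antitrypsin (SERPINA1, a protease inhibitor) had 72.3, 95.1, 65.3 and 82.7 FPKM. LECT2 was higher in both PET libraries, whereas alpha-1-antitrypsin was highest in the surfactant control. Serotransferrin (TF, an iron carrier) had 2.82, 1.29, 2.12 and 3.66 FPKM, once a contig of another protein that the symbol also matched was left out.

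Signalling genes upstream of the acute phase were mostly low or flat. Of 11 listed, 6 matched contigs and 3 averaged at least 1 FPKM. STAT3, the factor that relays interleukin-6, lay between 29.98 and 33.2 FPKM, and NFKB1, a subunit of the inflammatory factor NF-kappa-B, between 10.6 and 11.3 FPKM. CEBPB, a transcription factor of liver and inflammation, had 20.1 FPKM in untreated larvae, 14.8 FPKM in PET 10 mg/L larvae and 18.1 FPKM in PET 100 mg/L larvae, and was listed at 0 in surfactant control larvae. IL1B, a cytokine of the acute phase, was at or under 0.50 FPKM in all 4 libraries. CEBPB therefore has no fold over the surfactant control. STAT3 and NFKB1, the others that averaged at least 1 FPKM, were not past 1.2-fold between a PET library and the surfactant control. Of all descriptions, 23.6% were higher and 9.91% lower in PET 100 mg/L larvae, and 17.5% and 12.2% in PET 10 mg/L larvae. IL6 and TNF matched no contig.

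Hepatocyte markers stood in the same order of libraries as C3. Of 16 listed, 9 matched contigs, 8 of them averaging at least 1 FPKM. The 9 summed to 1039 FPKM in untreated larvae, 1194 FPKM in surfactant control larvae, 1327 FPKM in PET 10 mg/L larvae and 1427 FPKM in PET 100 mg/L larvae. At least 1.2-fold higher than in the surfactant control were 5 of the 8 in PET 100 mg/L larvae, beside 23.6% of all descriptions, and 4 in PET 10 mg/L larvae, beside 17.5%. As much lower were 0 in PET 100 mg/L larvae (9.91% of all) and 1, FBP1, in PET 10 mg/L larvae (12.2%). For PET 100 mg/L over the surfactant control, the log2 ratio was 0.27 for RBP4 and -0.22 for FBP1. A drop of 0.11, as scaling gave over all descriptions, would take RBP4 under 1.2-fold and put FBP1 among the lower. Against the untreated control, 7 were higher in PET 100 mg/L larvae (23.3% of all), 7 in PET 10 mg/L larvae (18.4%) and 3 in surfactant control larvae (14.3%). The median log2 ratio of the 8 to the surfactant control was 0.40 for PET 100 mg/L and 0.25 for PET 10 mg/L. The part of the hepatocyte markers' difference in that of complement was not tested.

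Retinol-binding protein 4 (RBP4), a plasma carrier of vitamin A, had 398 FPKM in untreated larvae, 484 FPKM in surfactant control larvae, 498 FPKM in PET 10 mg/L larvae and 586 FPKM in PET 100 mg/L larvae. AHSG, a plasma glycoprotein, had 239, 284, 312 and 298 FPKM in the same order of libraries, and AMBP, the precursor of a plasma lipocalin, had 108, 138, 137 and 147 FPKM. HPD, an enzyme of tyrosine breakdown, had 94.3, 96.8, 131 and 140 FPKM. Each of these 4 was highest in a PET library. FBP1, an enzyme of glucose synthesis, was not. It had 46.1, 50.8, 41.9 and 43.5 FPKM, highest in the surfactant control and lower in both PET libraries than in both others. Against the surfactant control, AMBP and AHSG were under 1.2-fold in both PET libraries. Their log2 ratios were 0.09 and 0.07 for PET 100 mg/L and -0.01 and 0.13 for PET 10 mg/L. RBP4 had 0.27 for PET 100 mg/L and 0.04 for PET 10 mg/L, and HPD had 0.53 and 0.44. Hepatocyte markers without a matching contig, such as transthyretin and prothrombin, were not measured here, and plasminogen was at or under 1.04 FPKM.

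Markers of macrophages, which also make some complement proteins, were low. Of 8 listed, 4 matched contigs, summing to 10.9 FPKM in untreated larvae, 13.0 FPKM in surfactant control larvae, 17.3 FPKM in PET 10 mg/L larvae and 14.2 FPKM in PET 100 mg/L larvae. Of the 3 that averaged at least 1 FPKM, 1 was at least 1.2-fold higher in PET 100 mg/L larvae than in the surfactant control, beside 23.6% of all descriptions, and 2 in PET 10 mg/L larvae, beside 17.5%. The 2 in PET 10 mg/L larvae were SPI1 and MPEG1. MPEG1 averaged 1 FPKM only through its value in that library, so nothing is read from its count there. The 1 counted as lower in PET 100 mg/L larvae, beside 9.91% of all, was MPEG1, which was listed at 0 there and has no fold, and 0 were lower in PET 10 mg/L larvae, beside 12.2%. The mannose receptor MRC1 lay between 7.13 and 8.14 FPKM. The macrophage-expressed gene 1 protein (MPEG1) was at 0.89 FPKM in surfactant control larvae and 4.58 FPKM in PET 10 mg/L larvae and listed at 0 in the other libraries. The transcription factor PU.1 (SPI1) had 3.48, 3.21, 4.57 and 5.03 FPKM in the order untreated, surfactant control, PET 10 mg/L and PET 100 mg/L, and 3.07, 2.87, 3.80 and 3.86 FPKM without a contig of another protein that the name also matched. Cathepsin S (CTSS), a lysosomal protease, had 0.31, 0.77, 0.35 and 1.59 FPKM. The 2 measured neutrophil markers of 5 listed, MMP9 and CSF3R, summed to 10.7, 12.5, 10.95 and 11.2 FPKM in that order. Between a PET library and the surfactant control, 0 of the 2 were past 1.2-fold. Of all descriptions, 23.6% were higher and 9.91% lower in PET 100 mg/L larvae, and 17.5% and 12.2% in PET 10 mg/L larvae. With 2 genes, little can be read from that count. Neither list's sum had the order of C3, but for macrophages this rested on MPEG1, at 4.58 FPKM in PET 10 mg/L larvae. Without MPEG1, the matched macrophage markers together stood in the order of C3, though none of MRC1, SPI1 and CTSS did so alone. The part of these cells in the result was not tested.

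**Figure D5:**
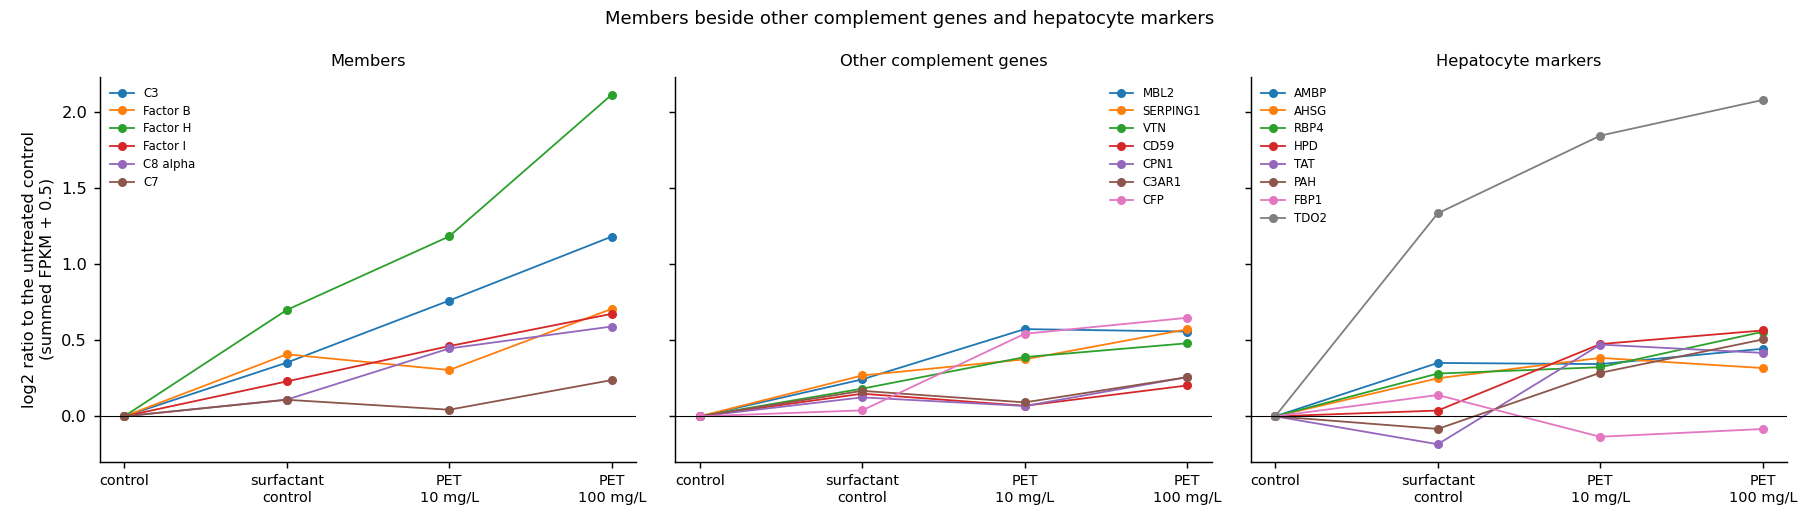
Log2 ratio of summed FPKM plus 0.5 to the untreated control in each library, for 6 cascade members, the 7 matched other complement genes and the 8 hepatocyte markers that averaged at least 1 FPKM. In PET 100 mg/L larvae factor H reaches 2.11 and C3 1.18, while 7 of the 8 hepatocyte markers lie between -0.08 and 0.56, and TDO2 at 2.08.

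Patterns most like those of C3 and of C-reactive protein were sought among 3963 other annotations with a summed mean of at least 5 FPKM. Likeness was the Euclidean distance between centred log2 values over the 4 libraries. Nearest to C3 was WD repeat, SAM and U-box domain-containing protein 1, at a distance of 0.19 and with 4.40, 4.74, 7.39 and 9.92 FPKM in the order untreated, surfactant control, PET 10 mg/L and PET 100 mg/L. Mitochondrial alanine-glyoxylate aminotransferase 2 was next, at a distance of 0.23 and with 8.42, 11.2, 15.4 and 16.9 FPKM. DENN domain-containing protein 2A, zinc finger MYM-type protein 1 and general transcription factor II-I repeat domain-containing protein 2 came after them, at distances up to 0.29.

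Nearest to C-reactive protein was alpha-actinin-1, at a distance of 0.01 and with 235.8, 244.9, 145 and 294 FPKM in the same order of libraries. The liver middle subunit of ferritin was next, with 5.30, 5.92, 3.46 and 8.30 FPKM. The transcription factor Sp3, the kinase VRK1 and deoxycytidylate deaminase came after it, at distances up to 0.24. Each pattern holds only 4 values, so a small distance describes these libraries and no more.

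Function terms deposited with the contigs were not used to choose the members. The term for the classical route of complement activation stood on 19 member contigs and 11 others, and that for the alternative route on 14 and 2. The membrane attack complex term stood on 6 member contigs, of C6, C7, C8 alpha and C9, and on 0 others. The acute phase term stood on the 5 contigs of C-reactive protein among the members and on 21 others. The 10 contigs of C1q-like and C1q tumour necrosis factor-related proteins carried the collagen trimer term.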

How the data were processed

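RNA of whole larvae was measured in 4 libraries, 1 per group. The authors deposited expression as FPKM, per the file headers, with a column for each library. Column headings were matched to the samples by treatment initials and concentration, as they do not spell out the titles. Tools named by the submitters' processing notes are RSEM and Bowtie, both without versions, and bcl2fastq 2.20.0.422. The sources used here do not give the assembly or annotation method. Listed contig lengths did not scale with the lowest FPKM values and were left unused: the 5th percentile of nonzero values in the control was 0.13 FPKM among contigs listed from 224 bases and 0.113 FPKM among those from 3000 bases. Without read counts, no interval can be given.

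FPKM were summed per description (letter case ignored) and compared between 6 pairs of libraries in Python 3.11.15 with pandas 2.3.3, as log2 of FPKM plus 0.5, among contigs or sums averaging at least 1 FPKM. This pseudocount understates ratios of low values. The ratio code was tested on simulated data. With 1 library per group, no hypothesis test was possible. All members are described, with single contigs for C3, C-reactive protein and descriptions averaging 5 FPKM, and the 4 highest genes per list. The choice of any further gene, and of the 1.2-fold threshold, came after values were known. Members and lists were chosen with earlier results of these data known. A list matched contigs by symbol or full name. No contig or protein sequences were used here.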

Additional observations from a re-analysis of the deposited data

How the results depend on the processing

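With 1 library per group, no library could be left out, and no error exists. No paired analysis was possible because each group has 1 sample. A log2 value was taken as moved when it shifted by at least 1.2-fold, and a count when it shifted by more than 1.5 times. By that measure 125 of 153 alternative values did not move. Some medians over member contigs were themselves under 1.2-fold and could have fallen to 0 without counting as moved. Changes of sign were counted only for ratios of at least 2-fold, which few results had, and 0 were found. Smaller ratios did change sign, as for C3 in PET 10 mg/L and for C-reactive protein in the surfactant control (below). Median-of-ratios scaling moved 0 of 31. Its factors ran from 0.977 for the control to 1.07 for PET 100 mg/L, too close for any log2 value to shift by 1.2-fold. Only the counts could have moved. Scaling changed the sign of small log2 ratios for CD93 in PET 100 mg/L over the surfactant control (0.01 as deposited, -0.08 scaled) and for the C1q-like protein 2 between PET concentrations (0.08 and -0.01). For C3, the second assembly component alone, tried only once the values were known, gave log2 ratios to the surfactant control of 0.084 for PET 100 mg/L and -0.20 for PET 10 mg/L, and to the control of 0.81 for PET 100 mg/L and 0.73 for the surfactant control, where the sums gave 0.83, 0.41, 1.18 and 0.35. For C-reactive protein, the main contig alone gave 0.70 for PET 100 mg/L over the surfactant control, -1.25 for PET 10 mg/L over the control, 1.56 for PET 100 mg/L over PET 10 mg/L, and -0.38 for the surfactant control over the control. The contigs averaging at least 1 FPKM gave 0.65 for PET 100 mg/L and -0.36 for PET 10 mg/L over the surfactant control and -0.35 for the surfactant control over the control. They leave out the contig that was above 0 in the surfactant control alone. Counts of contigs past 2-fold were small. In PET 100 mg/L over the surfactant control, 4 higher became 2 with a pseudocount of 1 and 7 without the filter on low values, and 0 lower became 1 with a pseudocount of 0.1 and 1 without the filter. For PET 10 mg/L over the surfactant control, 1 higher became 6 without the filter, and 0 lower became 1 with a pseudocount of 0.1 and 2 without the filter. Without the filter, counts over the control were 6 higher and 4 lower for PET 100 mg/L and 5 higher and 3 lower for PET 10 mg/L, where they were 3 and 0, and 3 and 1. Between PET 100 mg/L and PET 10 mg/L, 1 higher became 2 and 1 lower became 6 without the filter, and 1 lower became 0 with a pseudocount of 1. For the surfactant control over the control, 0 higher became 1 with a pseudocount of 0.1 and 2 without the filter, and 0 lower became 5 without the filter. Counts without the filter include contigs listed at 0 in some libraries. The count of descriptions higher in both PET libraries was 7 of 12, 6 after scaling, 6 by main contigs and 5 of 9 without the C1q-domain proteins. For these alternative counts of contigs and descriptions, no share over all contigs or descriptions was taken, so nothing is read from them.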

Other observations

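Contigs outside the members that carried a deposited complement activation term included immunoglobulin chains and a cell cycle regulator. The 8 immunoglobulin contigs, fragments of antibody light and heavy chains, summed to 4.94 FPKM in untreated larvae, 4.42 FPKM in surfactant control larvae, 3.15 FPKM in PET 10 mg/L larvae and 4.73 FPKM in PET 100 mg/L larvae. They were lowest in PET 10 mg/L larvae. The Ig lambda chain V-I region had 3.56, 3.20, 1.2 and 2.37 FPKM in the same order of libraries. RGCC, known in mammals as a response gene to complement, had 26.4, 28.7, 26.9 and 25.5 FPKM.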
